A study of Mus musculus with 5 samples.

Results

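Potassium, sodium and calcium channel subunits were read out of a whole-transcriptome measurement of purified mouse neuroepithelial cells. The members were chosen by gene symbol and not by level: every symbol beginning with Kcn, Cacna, Cacnb or Cacng, and every symbol made of Scn, a number and a final a or b. The rule found 133 members among 21801 genes (0.61%), of which 94 belonged to potassium, 13 to sodium and 26 to calcium channels. Scn2a1, the symbol under which the table lists a brain sodium channel alpha subunit, falls outside the rule because of its final digit, and the epithelial sodium channel genes Scnn1a, Scnn1b and Scnn1g and the splicing gene Scnm1 are not members either.

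All 5 libraries belonged to 1 group, neuroepithelial cells of the mouse (labelled NEC, with neural progenitor cells as the cell type), numbered replicates 1 to 5. The series title places the cells in the developing neocortex. Not known are strain, age, genotype, agent, the marker used for purification, and whether the replicates came from separate animals, litters or cultures: none of this is given in the sources used here, so the p-values below measure only the spread between these libraries, which may be technical. With 1 group there was no contrast between conditions, and each member was set against a fixed level of 1 FPKM and against its relatives in the same library. FPKM counts fragments per unit of transcript length and of mapped reads, which adjusts levels for length.

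Voltage-gated channels of these families are built around a pore-forming alpha subunit, which opens when the membrane depolarises, and carry auxiliary subunits that change gating and transport to the membrane. Inward rectifiers (Kcnj) and tandem pore-domain channels (Kcnk, also called K2P) pass potassium near the resting potential and help to set it, without a voltage sensor of the usual kind. Neuroepithelial cells are the dividing founder cells of the neocortex. They line the ventricle and do not fire action potentials, while the neurons derived from them rely on sodium, calcium and potassium channels for firing and transmitter release.

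The libraries held FPKM sums of 747034 to 847625 and 16275 to 18456 genes above 0, and the spacing of the lowest values implied 20.6 to 28.4 M counted reads (1 M is 1000000). At that depth 1 read is worth 0.0196 to 0.0269 FPKM in a transcript of 2000 bases and 0.00452 to 0.00622 FPKM in a transcript of 8000 bases, so levels near these rest on single reads. Replicate 1 had the most genes above 0. All 10 neural progenitor markers were called above 1 FPKM, with summed levels of 288 to 338 FPKM per library. Some markers of other cells were above the level too, beside 52.3% of all genes tested. These were 5 of 10 neuron markers (summed 88.2 to 125 FPKM), 7 of 10 mesenchyme and meninges markers (36.1 to 128 FPKM) and 6 of 8 surface ectoderm markers (113 to 169 FPKM). So were 3 of 6 neural crest markers (17.0 to 44.4 FPKM), 3 of 6 mural markers (10.6 to 24.1 FPKM) and 2 of 7 endothelial markers (5.83 to 11.8 FPKM). Others of these lists were called below, such as Dcx (0.270 FPKM), Sox10 (0.222 FPKM), Rgs5 (0.112 FPKM) and Cdh5 (0.301 FPKM). Counts near the share over all genes do not show that a cell type was present. Of 6 macrophage markers 1 was above, with Aif1 listed at 0 and sums of 1.01 to 3.38 FPKM. None of 6 Cajal-Retzius markers (sums 2.87 to 3.88 FPKM), 7 erythroid markers (2.95 to 9.92 FPKM) or 7 muscle markers (0.26 to 1.10 FPKM) was above. In such bulk RNA a gene used by few cells cannot be told apart from one with little RNA in every cell.

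Some neighbouring members differed in level, and the start regions of 2 adjacent pairs are printed to show how unlike the sequences before such neighbours can be. Kcnk5 was the highest member, and Kcnk16, another K2P gene 79.6 kb away on the same strand, was listed above 0 in replicate 1 only. Scn2b was the highest sodium channel member, and Scn4b, a second sodium channel beta subunit gene, starts 8.32 kb beyond its end. The windows cover 250 bases before to 50 bases after the annotated start, 5′ to 3′ on the gene's strand, from RefSeq on GRCm38.p6, and lie at chr14:20181733-20182032 (minus strand) for Kcnk5, chr14:20269220-20269519 (minus) for Kcnk16, chr9:45117626-45117925 (plus) for Scn2b and chr9:45138374-45138673 (plus) for Scn4b. Capitals mark each CG dinucleotide, the letters CG on the printed strand, which read the same on the other strand.
Kcnk5: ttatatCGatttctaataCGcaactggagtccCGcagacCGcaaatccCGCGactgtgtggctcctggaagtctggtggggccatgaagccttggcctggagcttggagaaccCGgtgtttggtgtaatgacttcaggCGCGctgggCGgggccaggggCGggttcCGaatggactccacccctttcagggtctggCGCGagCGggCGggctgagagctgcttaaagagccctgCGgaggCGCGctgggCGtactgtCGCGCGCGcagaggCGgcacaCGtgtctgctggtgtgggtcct
Kcnk16: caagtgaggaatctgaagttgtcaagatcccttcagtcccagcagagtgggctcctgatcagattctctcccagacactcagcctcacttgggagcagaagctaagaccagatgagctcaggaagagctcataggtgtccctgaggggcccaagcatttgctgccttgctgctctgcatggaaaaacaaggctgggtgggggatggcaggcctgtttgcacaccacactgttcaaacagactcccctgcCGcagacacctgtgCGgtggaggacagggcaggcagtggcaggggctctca
Scn2b: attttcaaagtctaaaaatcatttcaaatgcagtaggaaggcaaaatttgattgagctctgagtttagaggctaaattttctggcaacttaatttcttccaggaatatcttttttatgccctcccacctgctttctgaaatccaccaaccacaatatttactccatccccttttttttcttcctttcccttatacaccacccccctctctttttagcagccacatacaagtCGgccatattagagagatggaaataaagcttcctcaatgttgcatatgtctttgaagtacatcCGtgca
Scn4b: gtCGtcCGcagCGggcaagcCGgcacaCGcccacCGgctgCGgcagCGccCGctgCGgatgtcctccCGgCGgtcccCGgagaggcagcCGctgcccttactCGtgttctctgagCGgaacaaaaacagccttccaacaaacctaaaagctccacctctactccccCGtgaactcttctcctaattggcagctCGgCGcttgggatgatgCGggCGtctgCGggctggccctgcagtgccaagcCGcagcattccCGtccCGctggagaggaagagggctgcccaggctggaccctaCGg
Kcnk5 held 26 CG and Kcnk16 held 2. In the sodium pair the order was the other way round, with 2 CG at Scn2b, the higher gene, and 26 CG at Scn4b. Of 32851 RefSeq windows of this length 94.6% held at least 1 CG, with a median of 7, while 16.9% held 26 or more and 23.3% held 2 or fewer. The pairs were chosen after their levels were seen, and with opposite orders they show no rule. RefSeq windows matched 98 of the 133 members by symbol (73.7%), too few for a comparison over the members.

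Channel subunits were low as a family. Of the 126 members above 0 in at least 1 library, 8 were above 1 FPKM (6.35%), against 52.3% of 19706 genes tested, and 109 were below it (86.5%), against 41.4% of genes (limma on log2(FPKM + 1), Benjamini-Hochberg adjusted p under 0.05 over all genes tested). The remaining 9 tested members passed in neither direction, and 7 members were listed at 0 in every library. The median over all 133 members was 0.108 FPKM, against 1.04 FPKM over all genes. No member exceeded 10 FPKM on average, a level that 5861 genes (26.9%) exceeded, and the highest member stood at the 68.8th percentile of all genes. The counts were the same with p-values left unadjusted. With genes under 0.1 FPKM on average left out, 54 of the remaining 71 members were below the level, against 23.3% of genes. Above it were 9 of the 71, against 69.1% of genes.

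The members' levels summed to 62.2, 60.9, 51.8, 50.8 and 53.1 FPKM in replicates 1 to 5, between 0.00599% and 0.00833% of all FPKM. A few genes carried most of this: the highest 2 held 22.5% of the members' sum, the highest 7 held 50.1%, and the 13 with a mean above 1 FPKM held 63.2%. Of the others, 58 had means of 0.1 to 1 FPKM and 55 were above 0 with means under 0.1 FPKM. In total 88 members were above 0 in every library, 38 in some, and 7 of these 38 in 1 library only.

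**Figure D1:**
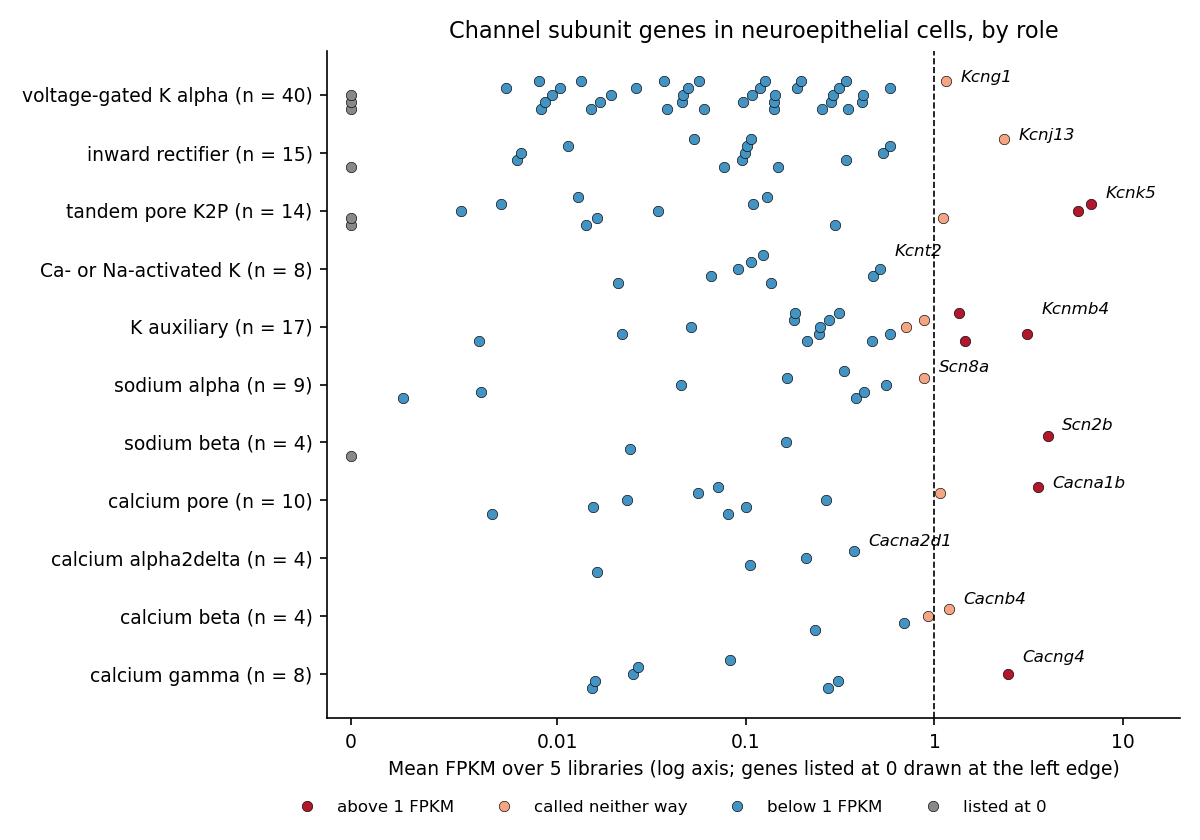
Mean FPKM over 5 libraries (log axis) of all 133 members by role, those listed at 0 at the left edge, with colour for the limma call against 1 FPKM. The 8 members called above lie in 5 roles, and no voltage-gated potassium alpha subunit, inward rectifier or sodium alpha subunit is among them.

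By role, few members of any role were above the level. The members called above were 2 of 14 K2P genes, 3 of 17 potassium channel auxiliary genes, 1 of 4 sodium channel beta genes, 1 of 10 calcium channel pore genes and 1 of 8 calcium channel gamma genes. None of 40 voltage-gated potassium alpha genes, 15 inward rectifiers, 8 calcium- or sodium-activated potassium channels, 9 sodium channel alpha genes, 4 calcium channel alpha2delta genes and 4 calcium channel beta genes was called above. By ion, 5 of 88 tested potassium, 1 of 12 tested sodium and 2 of 26 tested calcium members were above, and 78, 10 and 21 were below.

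The 2 highest members were K2P channels, which give cells a background potassium conductance. Kcnk5 (ENSMUSG00000023243, chromosome 14, 20140057 to 20181809, minus strand, mm10), a channel sensitive to extracellular pH, had 6.17, 8.16, 5.82, 7.06 and 6.73 FPKM in replicates 1 to 5. Its mean of 6.79 ± 0.905 FPKM (SD, n = 5) lay above 1 FPKM by 1.95 in log2(FPKM + 1), with SE 0.08 and a limma adjusted p = 8.67e-08. Kcnk1 (chromosome 8, 125995170 to 126030685, plus strand) had 4.62, 7.36, 6.55, 4.78 and 5.46 FPKM, averaging 5.75 ± 1.18 FPKM (SD, n = 5), with replicates 2 and 3 highest. Both genes were above the level in every library, and the ranges of Kcnk5 and Kcnk1 overlapped.

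Only 1 other K2P gene came near. Kcnk2, a channel opened by membrane stretch and lipids, had 1.15, 1.35, 1.42, 0.661 and 0.972 FPKM and differed from 1 FPKM by less than the spread between libraries (1.11 ± 0.308 FPKM, limma adjusted p = 0.520). Kcnk10, a relative of Kcnk2, followed at 0.296 ± 0.0917 FPKM, and the acid-sensitive channel genes Kcnk3 and Kcnk9 averaged 0.109 ± 0.0567 and 0.0163 ± 0.0223 FPKM (SD, n = 5 each). The lowest above 0 was Kcnk18 at 0.00309 FPKM, seen in replicate 1 alone, and Kcnk4 and Kcnk15 were listed at 0. The group therefore split into 2 genes of several FPKM, 1 near the level and 11 below it or at 0.

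Inward rectifiers held the most variable of the higher members. Kcnj13, a low-conductance channel known from the choroid plexus and the retinal pigment epithelium, had 3.49, 4.34, 0.725, 0.836 and 2.32 FPKM in replicates 1 to 5. Replicates 1, 2 and 5 were above the level, and replicates 3 and 4 below it. Its mean of 2.34 ± 1.60 FPKM (SD, n = 5) was not called above (limma adjusted p = 0.0588), and 98.9% of the 5122 genes of 1 to 10 FPKM had a smaller SD on the log2 scale. Exons of Gigyf2, a gene on the opposite strand at 33.6 to 39.8 FPKM, cover 49.1% of the exon bases of Kcnj13, and the labels do not say that reads kept their strand, so reads of the 2 genes cannot be told apart there. The call hung on the settings: against 1 FPKM the adjusted p ran from 0.0196 without replicate 3, where it was called above, to 0.172 without replicate 2, and it was also called above without replicate 4 (0.0286), with libraries scaled to a sum of 1000000 (0.0284), with genes under 0.1 FPKM left out (0.0332) and with robust variance (0.0431).

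The other inward rectifiers were below the level or at 0. Kcnj3, a subunit of G protein-gated channels, averaged 0.584 ± 0.211 FPKM, and Kcnj2, a strong rectifier, averaged 0.535 ± 0.0724 FPKM and stayed between 0.470 and 0.633 FPKM in all libraries. Kcnj10, known as the main inward rectifier of astrocytes, had 0.118, 0.0880, 0.0279, 0.122 and 0.15 FPKM. The pores of ATP-sensitive channels, Kcnj8 and Kcnj11, averaged 0.0529 ± 0.0369 and 0.0955 ± 0.0907 FPKM (SD, n = 5 each), and their regulatory subunits Abcc8 and Abcc9, which are no members, averaged 0.0545 and 0.292 FPKM. The lowest above 0 was Kcnj5, another G protein-gated subunit, at 0.00607 FPKM, and Kcnj4 was listed at 0.

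Among 40 voltage-gated potassium alpha genes, 36 were below 1 FPKM, 3 were listed at 0 (Kcna10, Kcnh3 and Kcns2), and 1 passed in neither direction. That gene was Kcng1, with 1.41, 0.893, 1.22, 1.19 and 1.05 FPKM (mean 1.15 ± 0.193 FPKM, SD, n = 5). Kcng1 encodes a silent subunit, which makes no channel by itself and works together with Kcnb subunits. Kcnb2, which encodes such a partner, averaged 0.0152 ± 0.0151 FPKM.

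Below Kcng1 the highest of each family stayed under 1 FPKM on average. Kcna1, a delayed rectifier of axons, had 0.394, 0.374, 0.580, 0.759 and 0.779 FPKM, while Kcna2, its partner in axons, averaged 0.00861 FPKM and was at 0 in 3 of 5 libraries. Kcnd1 of the A-type family averaged 0.416 ± 0.143 FPKM, Kcnq5 of the M-current family 0.413 ± 0.297 FPKM, and Kcnh6 of the ether-a-go-go family 0.290 ± 0.107 FPKM (SD, n = 5 each). Lower still were the modulatory subunits Kcns3, Kcnf1 and Kcnv1 at 0.0381, 0.0368 and 0.0260 FPKM. The lowest above 0 was Kcna4 at 0.00534 FPKM. Kcnc4, listed above 0 in 2 of 5 libraries, averaged 0.0169 FPKM.

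All 8 calcium- or sodium-activated potassium channel genes were below the level, Kcnu1, a pH-gated relative of the testis, included. Kcnt2, a sodium-activated channel, was the highest at 0.515 ± 0.0803 FPKM and varied little. Kcnn2, a small-conductance calcium-activated channel, had 0.809, 0.411, 0.375, 0.440 and 0.338 FPKM, with replicate 1 apart from the other 4. Kcnma1, the pore of the large-conductance BK channel, averaged 0.123 ± 0.0679 FPKM, and Kcnn4, the intermediate-conductance channel, was the lowest at 0.0210 ± 0.0237 FPKM (SD, n = 5 each).

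Potassium channel auxiliary subunits gave 3 of the 8 calls above. Kcnmb4 (chromosome 10, 116417861 to 116473878, minus strand), a BK channel beta subunit typical of brain, had 4.58, 2.14, 2.39, 2.59 and 3.82 FPKM, averaging 3.10 ± 1.05 FPKM (SD, n = 5), 1.00 above the level in log2(FPKM + 1), with SE 0.14 and a limma adjusted p = 0.00022. Antisense genes Kcnmb4os1 and Kcnmb4os2 cover 31.5% of its exon bases, so reads there cannot be told apart. Kcnab1, a cytoplasmic beta subunit of Kcna channels that can inactivate them, had 1.71, 1.59, 1.57, 1.18 and 1.21 FPKM (1.45 ± 0.241 FPKM, limma adjusted p = 0.010). It was above 1 FPKM in every library. Kcnip3, a calcium-binding partner of Kcnd channels that is also known as a transcriptional repressor, had 1.63, 1.23, 1.13, 1.51 and 1.21 FPKM (1.34 ± 0.214 FPKM, limma adjusted p = 0.0238). Its call was lost without replicate 1 (adjusted p = 0.0613) or replicate 4 (adjusted p = 0.0765).

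In the Kcne family of small membrane-spanning subunits, Kcne1l averaged 0.877 ± 0.209 FPKM and Kcne3, a partner of Kcnq1 in epithelia, had 0.232, 0.434, 0.630, 0.916 and 1.34 FPKM, and neither gene passed in either direction. Kcne3 was above the level in replicate 5 alone. Kcne1, the partner of Kcnq1 in the heart, averaged 0.468 ± 0.153 FPKM, and Kcnq1 itself averaged 0.0562 ± 0.0415 FPKM. Kcnab2 averaged 0.581 ± 0.249 FPKM, Kcnmb2 0.311 ± 0.110 FPKM and Kcnip1 0.275 ± 0.127 FPKM, all below the level, and the call of Kcnab2 was lost with libraries scaled to a sum of 1000000 (adjusted p = 0.057). The lowest of the 17 was Kcne4 at 0.00383 FPKM.

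Among sodium channels, an auxiliary subunit outranked every pore. Scn2b (chromosome 9, 45117782 to 45130070, plus strand), a beta subunit with an immunoglobulin domain that joins the alpha subunit through a disulfide bond, had 4.21, 4.54, 3.53, 4.20 and 3.45 FPKM. Its mean of 3.99 ± 0.473 FPKM (SD, n = 5) lay above 1 FPKM by 1.31 in log2(FPKM + 1), with SE 0.08 and a limma adjusted p = 1.41e-06. Scn3b at 0.163 ± 0.0883 FPKM and Scn4b at 0.0243 ± 0.0214 FPKM, beta genes as well, were below the level.

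None of the 9 sodium channel alpha genes was called above. Scn8a, the main channel of the axon initial segment in adult neurons, had 0.902, 0.724, 1.33, 0.598 and 0.868 FPKM and passed in neither direction (0.884 ± 0.276 FPKM, limma adjusted p = 0.297). The sensory neuron genes Scn9a and Scn11a averaged 0.552 ± 0.0948 and 0.420 ± 0.0927 FPKM, and Scn1a and Scn3a, both of brain, averaged 0.382 ± 0.194 and 0.329 ± 0.141 FPKM (SD, n = 5 each). All of these were above 0 in every library. The skeletal muscle gene Scn4a, the lowest member above 0, was listed above 0 in replicate 3 alone (mean 0.00151 FPKM). Scn2a1, outside the rule, averaged 0.286 ± 0.110 FPKM and was below the level too.

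Among the calcium channel pores, the N-type gene stood out. Cacna1b (chromosome 2, 24603887 to 24763152, minus strand), the pore of the N-type channel that drives transmitter release at synapses, had 2.52, 4.11, 4.82, 2.88 and 3.28 FPKM, averaging 3.52 ± 0.934 FPKM (SD, n = 5), 1.15 above the level in log2(FPKM + 1), with SE 0.12 and a limma adjusted p = 3.8e-05. Cacna1a, the P/Q-type pore, had 1.34, 0.894, 1.03, 0.932 and 1.13 FPKM, and its mean of 1.07 ± 0.180 FPKM did not differ from the level beyond the spread (limma adjusted p = 0.568). The lowest Cacna1b value exceeded the highest Cacna1a value.

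The other 8 pores were below the level. Cacna1g, a T-type pore that opens at low voltage, had 0.0506, 0.0695, 0.0685, 1.05 and 0.0927 FPKM. Its mean of 0.266 ± 0.437 FPKM thus rested on replicate 4, without which it averaged 0.0703 ± 0.0173 FPKM. The L-type pores Cacna1d and Cacna1c averaged 0.0997 ± 0.0535 and 0.0155 ± 0.0137 FPKM, the R-type pore Cacna1e 0.0555 ± 0.0344 FPKM, and the skeletal muscle pore Cacna1s 0.0235 ± 0.0481 FPKM (SD, n = 5 each). The lowest was the T-type pore Cacna1i at 0.00447 FPKM.

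Calcium channel beta subunits, which bind the pore inside the cell and carry it to the membrane, lay closest to 1 FPKM as a group, with a median of 0.804 FPKM over 4 genes. Cacnb4 had 2.81, 0.610, 0.448, 1.68 and 0.403 FPKM, above the level in replicates 1 and 4 and below it in the other 3 (1.19 ± 1.04 FPKM, SD, n = 5). Cacnb3 was steadier at 0.921 ± 0.202 FPKM, and Cacnb2, called below, had 1.14, 0.680, 0.793, 0.493 and 0.324 FPKM (limma adjusted p = 0.0340). Its call was lost without replicate 2, 4 or 5, and also with no filter (adjusted p = 0.0643) or with libraries scaled to a sum of 1000000 (adjusted p = 0.353). Cacnb1, the form of skeletal muscle, was lowest at 0.232 ± 0.117 FPKM.

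All 4 alpha2delta genes, which encode extracellular subunits that carry calcium channels to the surface, were below the level, from Cacna2d1 at 0.372 ± 0.0730 FPKM to Cacna2d4 at 0.0163 ± 0.0205 FPKM (SD, n = 5 each). Of 8 gamma genes only Cacng4 was above it. Cacng4 (chromosome 11, 107732357 to 107794557, minus strand) belongs to the gamma subunits best known for carrying AMPA-type glutamate receptors, and had 2.76, 2.34, 2.31, 2.30 and 2.56 FPKM, a narrow range (2.45 ± 0.202 FPKM). Cacng5 and Cacng7 followed at 0.308 ± 0.176 and 0.271 ± 0.0983 FPKM. Cacng2, of the same receptor-binding kind, averaged 0.0824 ± 0.0445 FPKM, the muscle gene Cacng1 0.0268 ± 0.0409 FPKM, and Cacng3 was lowest at 0.0153 FPKM.

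**Figure D2:**
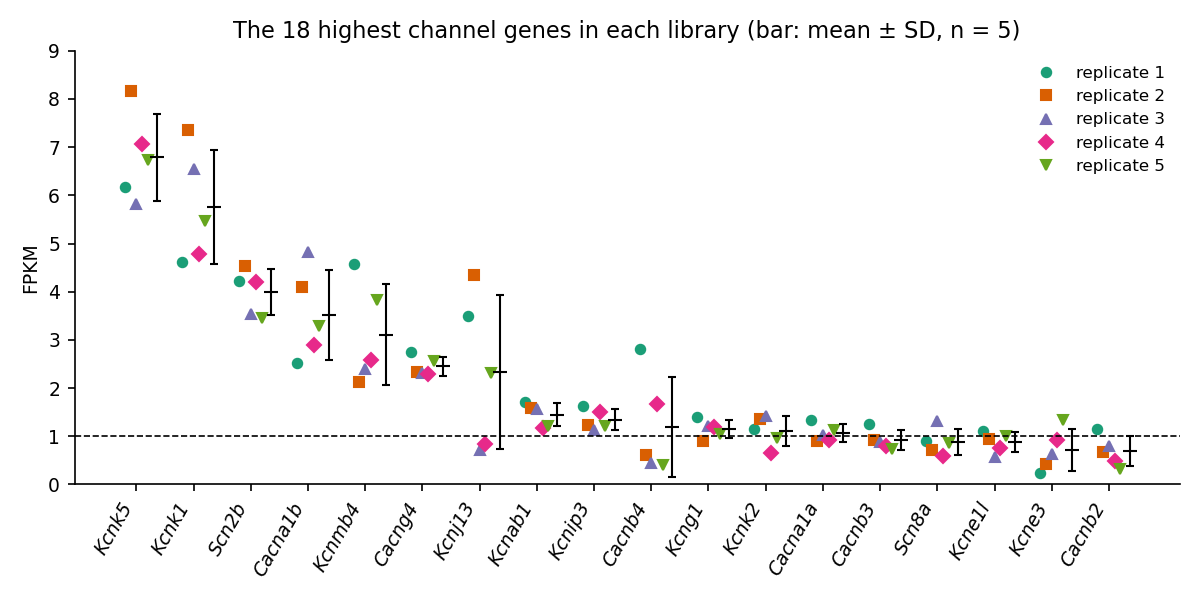
FPKM in each of 5 libraries for the 18 members with the highest means, with mean and SD. Kcnk5, Kcnk1, Scn2b, Cacna1b and Cacng4 lie above 1 FPKM in every library, while Kcnj13 and Cacnb4 lie on both sides of it.

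Several of the higher members were auxiliary subunits whose pore partners were lower in the same library, and this was described after the levels were seen, with no test. Scn2b exceeded the highest sodium channel alpha gene, Scn8a, in 5 of 5 libraries (means 3.99 and 0.884 FPKM). Kcnmb4 exceeded Kcnma1 in 5 of 5 libraries (3.10 and 0.123 FPKM), and Kcnab1 exceeded the highest Kcna gene, Kcna1, in 5 of 5 (1.45 and 0.577 FPKM). The excess held for each of these subunits in every library. Kcnip3 exceeded the highest Kcnd gene in 4 of 5 libraries, the exception being replicate 2, where Kcnip3 was at 1.23 FPKM and Kcnd3 at 1.26 FPKM. Calcium channels ran the other way on average. The pore gene Cacna1b (3.52 FPKM) was above the highest gamma, beta and alpha2delta genes, Cacng4 (2.45 FPKM), Cacnb4 (1.19 FPKM) and Cacna2d1 (0.372 FPKM). In replicate 1, however, Cacnb4 (2.81 FPKM) and Cacng4 (2.76 FPKM) exceeded Cacna1b (2.52 FPKM). FPKM compares RNA and not the number of subunits in a channel. The longest annotated transcripts were 1626 bases for Kcnmb4 and 12094 for Kcnma1, and 4656 for Scn2b and 11436 for Scn8a. Those of Kcnab1 and Kcna1 were closer in length, at 4382 and 4031 bases. The part of transcript length in these differences, with cDNA primed with poly-dT, was not tested.

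Close relatives were then compared within each library, as the difference in log2(FPKM + 1) of the first gene minus the second (SD, n = 5), by flipping the signs of the 5 differences in an exact permutation test, two-sided. With 5 libraries its smallest p is 0.062, so no single pair could pass 0.05. Of 17 pairs tested, 11 kept 1 direction across all 5 libraries, each with a permutation p of 0.062, the smallest possible, and 0.0966 after Benjamini-Hochberg adjustment over the pairs.

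The widest difference in favour of the first gene was 1.67 ± 0.18 for the K2P genes Kcnk1 over Kcnk2, which had 5.75 and 1.11 FPKM. Kcnab1 was 0.64 ± 0.28 above Kcnab2, Kcnj2 was 0.48 ± 0.09 above Kcnj10, and Cacna2d1 was 0.19 ± 0.12 above Cacna2d2. All 4 of these pairs kept this order in every library. In the other direction the widest difference was -1.11 ± 0.38 for Cacna1a minus Cacna1b, so the N-type gene exceeded the P/Q-type gene in every library. Scn3a, the sodium channel alpha gene best known from embryonic brain, gave -0.50 ± 0.31 against Scn8a, with means of 0.329 and 0.884 FPKM. Cacnb1 minus Cacnb2 gave -0.44 ± 0.29 and Kcnn1 minus Kcnn2 gave -0.37 ± 0.11. A small difference in the same direction in every library was -0.11 ± 0.08 for Cacna1c minus Cacna1d, the L-type pores.

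The other 6 pairs changed order between libraries. Cacna1h minus Cacna1g was -0.17 ± 0.46 (exact permutation p = 0.812), Cacnb3 minus Cacnb4 was -0.08 ± 0.54 (p = 0.75) and Kcnd2 minus Kcnd3 was -0.20 ± 0.49 (p = 0.75). In these 3 pairs the sign of the mean turned on single libraries: without replicate 4 the first was 0.03, without replicate 1 the second was 0.09 (without replicate 4 it was 0.05), and without replicate 2 the third was 0.02. Kcnh1 minus Kcnh2 was -0.19 ± 0.21 (p = 0.125) and Kcnma1 minus Kcnt1 was 0.04 ± 0.18 (p = 0.5), both by the same exact permutation test.

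**Figure D3:**
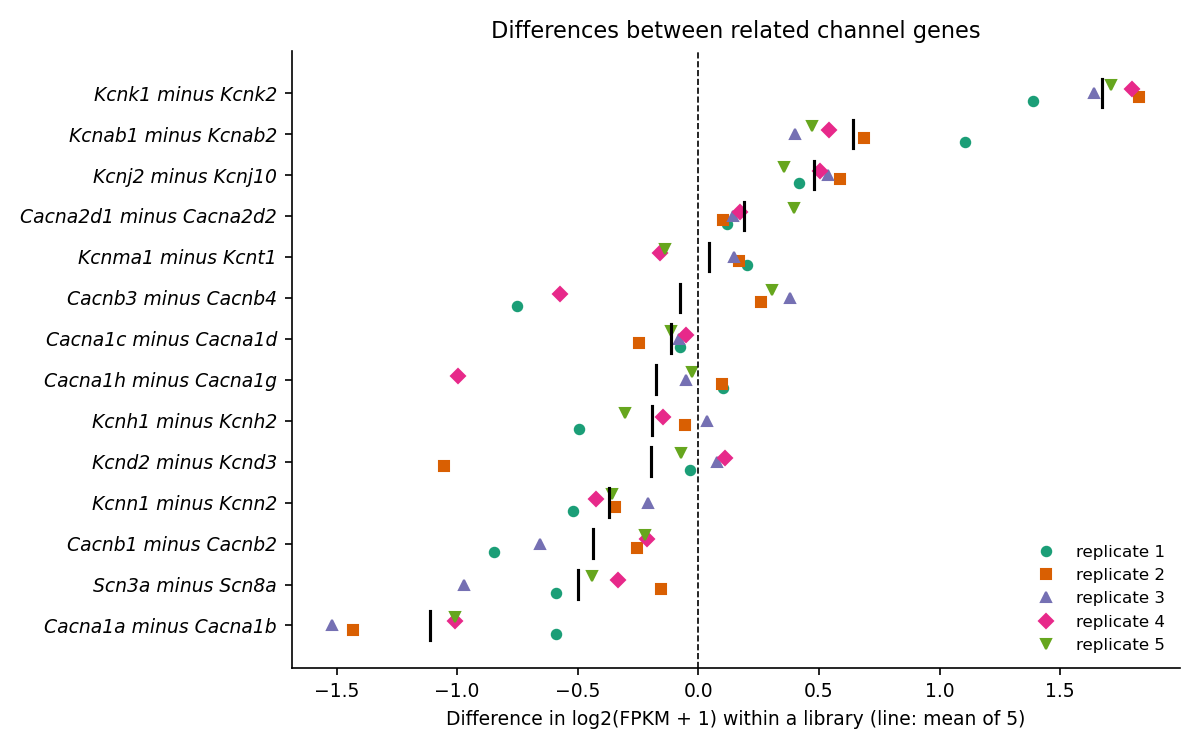
Difference in log2(FPKM + 1), first gene minus second, within each of 5 libraries for 14 of the 17 pairs tested, with a line at the mean. Kcnk1 minus Kcnk2 and Cacna1a minus Cacna1b lie farthest from 0, and 9 of the pairs drawn have all 5 libraries on 1 side.

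Replicate 1 had the highest level of many members. Of the 71 members averaging 0.1 FPKM or more, 33 (46.5%) were highest in replicate 1, against 29.4% of all genes of 0.1 to 10 FPKM. Of these members 58 averaged 0.1 to 1 FPKM, and the genes were not matched to them by level. Replicate 1 also had the fewest members at 0, 18, against 27 to 32 in the others. It had the most genes above 0 over the whole table too, 18456 of 21801, against 16275 to 17336 in the others. The fewer zeros were thus not particular to the members. The median deviation from the 5-library mean on the log2 scale was taken over the 13 members averaging 1 FPKM or more. It was 0.15, 0.08, -0.06, -0.09 and -0.05 in replicates 1 to 5. Over all genes averaging 1 FPKM or more it was -0.06, 0.01, 0.00, 0.03 and 0.01. Those genes include 5861 over 10 FPKM, a level that no member exceeded on average. The summed neuron markers were 118, 125, 88.2, 95.1 and 98.8 FPKM, higher in the same replicates 1 and 2. Most of this sum was Tubb3 (69.5, 80.2, 48.3, 52.3 and 57.8 FPKM). Map2 and Stmn2 were also highest in replicates 1 and 2, while Gap43 ran the other way (11.9, 13.3, 23.4, 20.5 and 22.0 FPKM) and Dcx was highest in replicate 4. The neural progenitor markers had median deviations of 0.14, 0.08, -0.22, -0.04 and -0.02, highest in replicates 1 and 2 as in the members. Their sums were 338, 335, 288, 334 and 328 FPKM, with only replicate 3 apart. Sox1, Sox2, Pax6, Hes1, Cdh2 and Msi1 were highest in replicates 1 and 2. Fabp7 and Vim were highest in replicates 4 and 5, Nes in replicate 5, and Prom1 in replicates 2 and 4. The summed mesenchyme and meninges markers were lowest in replicates 1 and 2, at 36.1, 59.0, 128, 106 and 106 FPKM. The part of progenitor, neuron or mesenchyme RNA in the members' levels was not tested.

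Single members followed different libraries. Kcnj13 was high in replicates 1, 2 and 5, while Cacnb4 was high in replicates 1 and 4, and 98.3% of the 5122 genes of 1 to 10 FPKM had a smaller SD than Cacnb4. Kcnk1 and Cacna1b were both highest in replicates 2 and 3, in which the surface ectoderm markers were highest too (113, 169, 160, 115 and 116 FPKM in replicates 1 to 5). Kcne3 was lowest in replicate 1 and highest in replicate 5, and the summed endothelial markers had 5.83, 6.34, 8.28, 11.4 and 11.8 FPKM. Esam and Tek carried much of that rise. Pecam1, the highest of that list, did not follow it, with 3.70, 3.44, 2.70, 3.01 and 3.76 FPKM. Tie1, Cldn5 and Cdh5 were called below the level. The part of surface ectoderm or endothelial RNA in the levels of Kcnk1, Cacna1b and Kcne3 was not tested. The median SD on the log2 scale was 0.16 over the 13 higher members, against 0.20 over all genes of 1 to 10 FPKM.

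**Figure D4:**
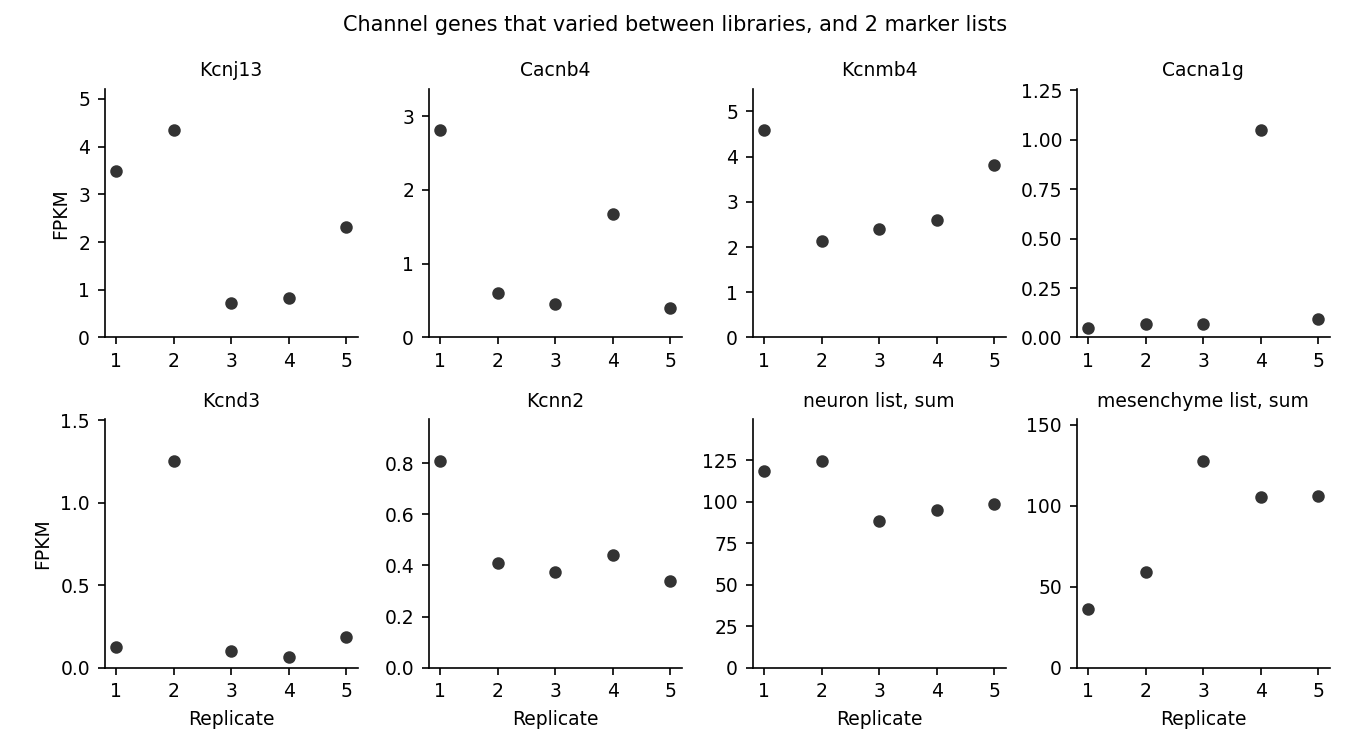
FPKM in replicates 1 to 5 of 6 members that differed between libraries (Kcnj13, Cacnb4, Kcnmb4, Cacna1g, Kcnd3 and Kcnn2), beside the summed FPKM of the neuron and of the mesenchyme and meninges markers. Cacnb4, Kcnmb4 and Kcnn2 were highest in replicate 1 and Kcnj13 and Kcnd3 in replicate 2, with Cacna1g high in replicate 4 alone and Kcnd3 high in replicate 2 alone.

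Members that lie next to each other in the genome were compared by their calls. Of 21 neighbouring pairs within 200 kb, holding 36 members, none had both genes above 1 FPKM, 4 had exactly 1 above, and in 17 both were below or at 0. With 8 of 133 members above the level, these counts say nothing particular about neighbours. The 4 were Kcnk5 with Kcnk16, Scn2b with Scn4b, and Cacng4 with each of its neighbours Cacng1 and Cacng5. Cacng4 averaged 2.45 FPKM between neighbours at 0.0268 FPKM (Cacng1, 15.8 kb away) and 0.308 FPKM (Cacng5, 80.1 kb away). Opposite-strand genes share exon bases with other named members as well, among them 8.01% of those of Kcnk1, 2.34% of Kcnab1, 12.2% of Kcnk2, 16% of Cacnb4, 20% of Cacna1s and 31.1% of Kcnj3, where reads cannot be told apart either.

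Genes that work with these channels were counted as a fixed list of pumps, intracellular calcium channels, cytoplasmic partners and related channels. Of its 52 symbols 51 were in the table, 17 above 1 FPKM and 32 below, beside 52.3% and 41.4% of all genes tested. Of the rest 1 passed in neither direction and 1, Lrrc26, was listed at 0. Among the highest were the calmodulin genes Calm2 and Calm3 at 1261 and 110 FPKM, which serve many proteins besides channels. Lower came Atp2a2, the calcium pump of the endoplasmic reticulum, at 28.6 FPKM and Ank3, which anchors sodium channels in axons, at 25.5 FPKM. The lowest above 0 were Rrad, Stac, Dpp10, Hcn2 and Hcn4, at 0.0063, 0.0090, 0.0096, 0.0113 and 0.0198 FPKM. Hcn2 and Hcn4 are hyperpolarisation-activated channels, Dpp10 is an auxiliary subunit of Kcnd channels, and Rrad and Stac act on calcium channels.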

How the data were processed

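RNA of 5 libraries of 1 group was measured by RNA sequencing. Per the labels' protocols, full-length cDNA was primed with poly-dT, amplified for 12 cycles, sheared and amplified for 15 more, and read as single ends of 75 bases at about 35 M reads (1 M is 1000000) a sample. Without molecular identifiers, PCR copies and separate molecules look alike. The authors deposited FPKM per gene and library. Tools in the submitters' processing notes are Cuffdiff 2.2.1, TopHat2 2.0.11, cutadapt and CASAVA 1.8, on build mm10, with annotation, filters and read total not given in the sources used here.

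For this account a pseudocount of 1 was added and log2 values were set against 1 FPKM with limma 3.58.1 (R 4.3.3), with a variance trend, over 19706 genes above 0 in at least 1 library. FPKM are not counts, so no count model was used. Differences on this scale understate those of low genes. Pairs used an exact test over 32 sign patterns. The scripts were tested on simulated data. In all libraries 2095 genes were listed at 0, among them Actb, Pkm and Eef1a1, so some zeros may be failed estimates and all are given as listed. Coordinates are from GENCODE M21 on mm10, which held all 133 members, and 39 members share exon bases with another gene.

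Members named are the 12 highest, the highest and lowest of each role, the highest of each letter family, the paired genes, the 5 either side of 1 FPKM, the 5 most variable, and a roster. Further members were named with their values in view. The members and lists were chosen with earlier results of these data known. Alternatives were other pseudocounts, levels, filters, scalings, variance models and membership, and each library left out. Some genes and pairs that the counts include are not reported here.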

Additional observations from a re-analysis of the deposited data

Results flagged for a closer look

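In 3 of the 49 members tested for a library apart from the other 4, a single value stood out, and chance gives about 1 in 20 groups of this size. Kcnn2 had 0.809 FPKM in replicate 1, against 0.338 to 0.440 FPKM in the others. Kcnd3, an A-type potassium channel, had 1.26 FPKM in replicate 2, against 0.0657 to 0.190 FPKM, and averaged 0.121 ± 0.0519 FPKM without it. Cacna1g had 1.05 FPKM in replicate 4, against 0.0506 to 0.0927 FPKM. Each of the 3 members was highest in a different library.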

How the results depend on the processing

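No contrast between conditions, paired or not, was possible because there is 1 group. At 0.5 FPKM, 15 members were above (9 potassium, 2 sodium, 4 calcium), and at 2 FPKM 6 were (3 potassium, 1 sodium, 2 calcium). The shares of all genes above these levels are not given here. With a mean of at least 0.1 FPKM required, 54 of 71 members were below (40 potassium, 6 sodium, 8 calcium), beside 23.3% of all genes so tested. Each library scaled to a sum of 1000000 gave 11 members above and moved genes of at least 1 FPKM by a median of 0.30 on the log2 scale. Leaving out each library in turn gave 7 to 9 members above and 106 to 109 below. The shares of all genes called with this scaling, or with a library left out, are not given here. These counts are therefore not read as results about the members. At 2 FPKM the signed difference turned for Kcnab1 (-0.30), Kcnip3 (-0.36), Cacnb4 (-0.57), Kcng1 (-0.48), Kcnk2 (-0.52) and Cacna1a (-0.54), and at 0.5 FPKM for Cacnb3 (0.35), Scn8a (0.32), Kcne1l (0.32), Cacnb2 (0.15), Kcne3 (0.15), Kcnab2 (0.0614), Kcna1 (0.0638), Scn9a (0.0474), Kcnj2 (0.0323) and Kcnt2 (0.013), as moving the level does by construction. With each library left out, Cacna1h minus Cacna1g ranged from -0.24 to 0.0304, Cacnb3 minus Cacnb4 from -0.19 to 0.0933 and Kcnd2 minus Kcnd3 from -0.27 to 0.0198. With a pseudocount of 0.1, Cacnb3 minus Cacnb4 was 0.0058. The cause was not tested. Depth limits levels under about 0.1 FPKM, which rest on few reads.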

Other observations

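Markers of the tissues in which Kcnj13 is known were listed after its values were seen. Of 8 retinal pigment epithelium markers 3 were above 1 FPKM, with sums of 7.11, 7.50, 12.7, 5.25 and 6.17 FPKM in replicates 1 to 5. Of 6 choroid plexus markers 2 were above, with sums of 111, 99.9, 74.9, 108 and 94.0 FPKM. Single genes weighed heavily in these sums. Trpm1 held 9.52 FPKM of the first sum in replicate 3. Tyr (1.05 FPKM) and Dct (0.165 FPKM) were at their lowest there, while Mitf (1.71 FPKM) was near its highest and Pmel was lowest in replicate 5. Otx2 held 98.8, 87.9, 64.0, 89.8 and 84.9 FPKM of the second sum in replicates 1 to 5, while Ttr, Aqp1 and Kl were called below the level. The part of either tissue in the level of Kcnj13 was not tested.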
